A study of Mus musculus with 10 samples.

Results

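Ribosomes are built in the nucleolus, and the genes described here encode 32 of the factors that build them: proteins of ribosomal RNA (rRNA) synthesis, of the small nucleolar ribonucleoproteins (snoRNPs) that modify rRNA, and of the assembly of the small and the large ribosomal subunit. They were taken by symbol from a table of 49568 genes, and 31 of them were among the 14870 genes that averaged at least 10 normalized counts and were compared between the cohorts. RNA came from reactive cholangiocytes, the bile duct cells that multiply in an injured liver, of 5 *Ctl* and 5 *Smad4del* mice, with 1 sample per mouse. All mice had eaten a diet with 0.1% DDC, a compound that injures bile ducts through porphyrin plugs, for 2 weeks, and their EPCAM+/CD45-/TER119- liver cells were sorted (EPCAM marks epithelium, CD45 leukocytes and TER119 erythroid cells). *Smad4del* mice carried floxed *Smad4* alleles (*Smad4* fl/fl) and *Alb-Cre*, in which the albumin promoter drives Cre in hepatocytes and bile duct cells, on a mixed background. *Ctl* mice are *Smad4wt/wt* by the labels and lack *Alb-Cre* by the study's methods, so Cre is a second difference between the cohorts, and what Cre alone does cannot be told apart from loss of *Smad4*. Sex, age and litter are not in the labels, which also carry a cell line tag although the cells were sorted from livers.

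RNA polymerase I transcribes the precursor of most rRNA, and snoRNPs then guide its chemical modification: box C/D snoRNPs add methyl groups to riboses, and box H/ACA snoRNPs turn uridines into pseudouridines. The processome cleaves the precursor and folds the small subunit, while other factors, among them helicases and GTPases, mature the large subunit before export from the nucleus. Cells that grow and divide need many new ribosomes, and the transcription factor MYC is known to drive many of these genes, often from the E-box CACGTG. SMAD4, the common partner of the receptor-activated SMAD proteins, carries signals of TGFβ and BMP ligands to DNA, where the palindrome GTCTAGAC is a known binding sequence.

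The genes of the box H/ACA core had the highest median difference between the cohorts of the role groups described here, and the sequence before the start of their genes is therefore shown, from RefSeq on GRCm38.p6, in the direction of transcription. *Nop2*, which encodes an rRNA methyltransferase, is added because it is the member with an E-box before its start. Capitals mark the E-box, the GC-box GGGCGG and the TATA-box TATAAA wherever they stand on either strand. Shown are chrX:75095604-75095853 (plus strand) for *Dkc1*, chr11:51619523-51619734 (plus strand) for *Nhp2*, chr2:112261676-112261925 (plus strand) for *Nop10*, chr3:129831397-129831646 (minus strand) for *Gar1* and chr6:125131633-125131882 (plus strand) for *Nop2*. *Nhp2* is shown to the base before its start in GENCODE, which lies upstream of its RefSeq start.
Dkc1: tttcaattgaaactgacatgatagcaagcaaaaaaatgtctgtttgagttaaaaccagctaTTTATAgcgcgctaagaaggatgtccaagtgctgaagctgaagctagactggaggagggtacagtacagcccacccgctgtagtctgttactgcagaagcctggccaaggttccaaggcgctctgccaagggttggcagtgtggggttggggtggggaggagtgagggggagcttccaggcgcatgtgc
Nhp2: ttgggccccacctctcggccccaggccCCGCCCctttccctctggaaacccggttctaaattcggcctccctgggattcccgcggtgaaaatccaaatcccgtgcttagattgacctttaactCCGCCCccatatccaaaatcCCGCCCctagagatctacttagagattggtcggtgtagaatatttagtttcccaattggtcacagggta
Nop10: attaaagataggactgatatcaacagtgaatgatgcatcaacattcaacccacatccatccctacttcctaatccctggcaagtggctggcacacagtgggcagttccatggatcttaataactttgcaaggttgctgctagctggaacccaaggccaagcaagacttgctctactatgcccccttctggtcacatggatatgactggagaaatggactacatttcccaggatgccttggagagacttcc
Gar1: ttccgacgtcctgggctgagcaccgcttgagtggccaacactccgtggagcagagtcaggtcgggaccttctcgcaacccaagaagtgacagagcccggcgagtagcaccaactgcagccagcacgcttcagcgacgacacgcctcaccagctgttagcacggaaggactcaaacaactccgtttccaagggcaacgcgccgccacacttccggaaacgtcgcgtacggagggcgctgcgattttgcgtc
Nop2: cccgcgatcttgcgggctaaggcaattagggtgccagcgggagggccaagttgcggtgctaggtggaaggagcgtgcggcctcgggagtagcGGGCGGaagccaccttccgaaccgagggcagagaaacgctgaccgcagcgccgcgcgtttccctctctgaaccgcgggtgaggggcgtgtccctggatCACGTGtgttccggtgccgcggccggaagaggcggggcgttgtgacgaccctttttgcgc
These stretches share few of the motifs searched. *Dkc1* held a TATA-box 189 bases before its start and no GC-box, *Nhp2* held GC-boxes 223, 127 and 107 bases before its RefSeq start, and *Nop10* and *Gar1* held none of the 3 motifs. *Nop2* held an E-box 60 bases and a GC-box 158 bases before its start.

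RefSeq windows from 250 bases before to 50 bases after the start were at hand for 27 of the 32 members, 1 window each, and not for *Npm1*, *Fbl*, *Rrp12*, *Rrs1* and *Bop1*. Both strands were searched. The E-box stood in 5 of the 27 windows (18.5%), in 9.4% of the 14080 windows of tested genes and in 7.2% of all 32851 windows. Counted by gene, where any window of a gene may match, it stood in 11.2% of the 11018 tested genes with a window. It lay after the start in *Pes1* (2 bases), *Wdr43* (17 bases), *Utp20* (37 bases) and *Mybbp1a* (40 bases). The GC-box stood in 20 of 27 (74.1%), in 59.5% of windows of tested genes, in 66.1% of tested genes and in 35.7% of all windows. The TATA-box stood in 3 (11.1%, *Dkc1*, *Pes1* and *Ppan*). It stood in 7.9% of windows of tested genes, in 9.5% of tested genes and in 13.6% of all windows. GTCTAGAC was in 0 of 27, in 0.3% of tested genes and in 0.2% of all windows. The 5 members with an E-box had log2 fold changes between *Smad4del* and *Ctl* cells of 0.15 (*Nop2*), 0.15 (*Wdr43*), 0.11 (*Pes1*), 0.01 (*Mybbp1a*) and -0.28 (*Utp20*), and none of them passed the test described next. A match of letters is a description of the sequence and does not show that a factor binds there.

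Loss of *Smad4* RNA was seen in each *Smad4del* mouse. *Smad4* ranged from 2969 to 3714 normalized counts over the *Ctl* mice and from 687 to 1031 over the *Smad4del* mice (log2 fold change -1.96, standard error (SE) 0.123, adjusted p = 1.09e-05 from limma). Normalized counts are the authors' read counts per gene divided by 1 size factor per mouse, and the reads on genes recovered from them numbered 16249719 to 21277339 per mouse. Log2 fold changes here are *Smad4del* minus *Ctl* on the scale log2(normalized count + 1), tested with limma, and genes with a Benjamini-Hochberg adjusted p under 0.05 over the 14870 genes were called. By this rule 362 genes (2.43%) were higher and 697 (4.69%) lower in *Smad4del* cells, and the split was 626 and 639 with the mice scaled to the same median. *Krt19*, a keratin of bile duct cells, was abundant in every sample and rose without overlap, from 20800 ± 2472 normalized counts in *Ctl* to 30191 ± 5034 in *Smad4del* cells (SD, n = 5 each; log2 fold change 0.53, adjusted p = 0.027 by limma). The 12 cholangiocyte markers summed to between 496330 and 692872 normalized counts per *Ctl* mouse and between 683785 and 837775 per *Smad4del* mouse; *Krt19* was the 1 called, and 4 were higher and 1 lower at an unadjusted p under 0.05. Limma called 0 of 12 hepatocyte markers (5 higher at an unadjusted p under 0.05), and they summed to 64733 to 97188 and 72302 to 112773.

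Among the 31 members tested, *Dkc1* rose, 0 fell and 30 were not called. The 1 of 31 stands beside the 2.43% of all genes that were called higher. Most members lay slightly above 0 all the same: 26 of 31 had a positive log2 fold change, against 49.4% of all genes tested, and their median was 0.14, against -0.00497 over all genes (range of the members -0.31 to 0.47). At an unadjusted p under 0.05 there were 8 members higher and 1 lower (*Gnl3*), where 12.3% of all genes were higher and 15.1% lower. In 3 members (*Dkc1*, *Nhp2* and *Fbl*) each *Smad4del* mouse was above each *Ctl* mouse, which held for 3.5% of all genes. All of these differences were small. The ratio of the cohort means lay between 0.809 and 1.38, within 1.1-fold either way in 11 members, and the upper end of the 95% interval of the log2 fold change was under 1 in all 31, at most 0.71. The lowest lower end was -1.08, in *Utp20*, so a larger fall is not excluded for that member. Members also varied little between mice of a cohort, with a median SD of 0.177 on the log2 scale against 0.3 over all genes. All genes had a lower mean log2 level (8.21 to 8.51 per mouse) than the members (9.86 to 10.2). The median SD was also 0.177 in other ribosome biogenesis factors and 0.155 in cytosolic ribosomal proteins, both described below. Among the members the SD ran from 0.0948 (*Ppan*) to 0.308 (*Rrp12*) in 30 and was 0.689 in *Utp20*. *Wdr74*, a factor of large subunit maturation, had only 4.44 to 10.2 normalized counts per *Ctl* mouse and 4.15 to 6.45 per *Smad4del* mouse, too low to be tested.

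**Figure D1:**
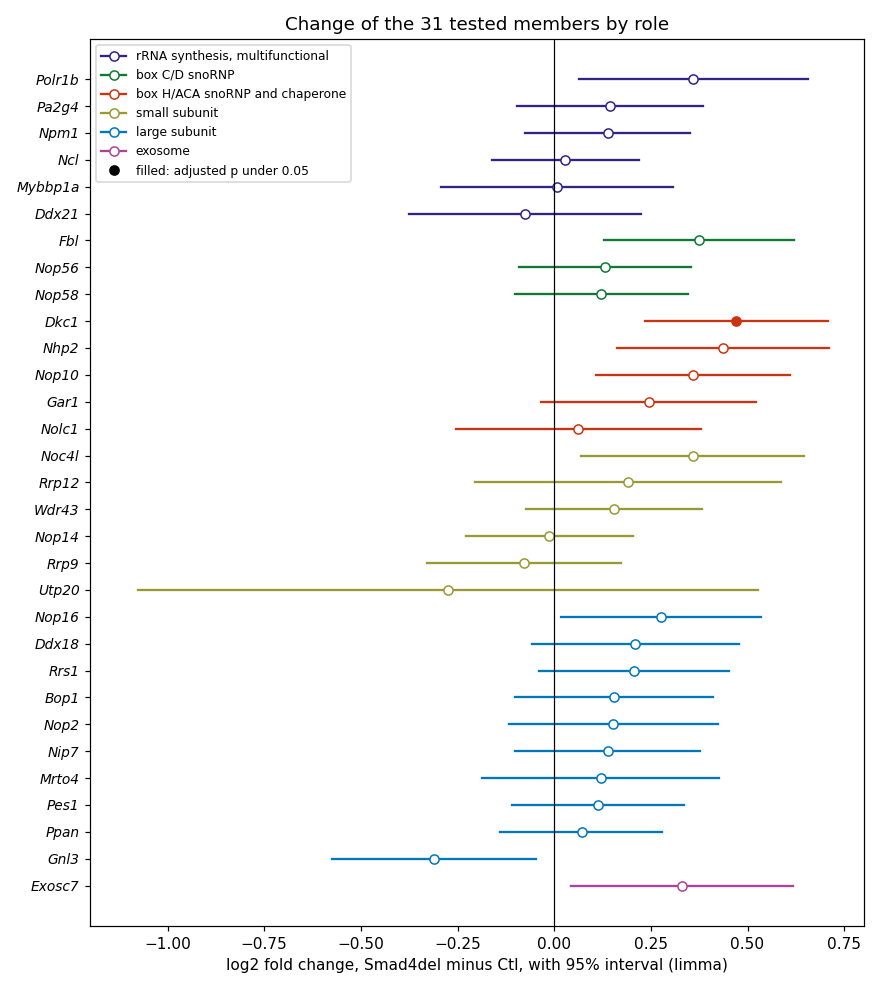
Log2 fold change (horizontal axis, *Smad4del* minus *Ctl*, limma) of the 31 members tested, with lines for the 95% interval, colours for the role, and a filled point for an adjusted p under 0.05. *Dkc1* has the only filled point, 9 intervals leave out 0 (8 above and *Gnl3* below), and *Utp20* has the widest interval.

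**Figure D2:**
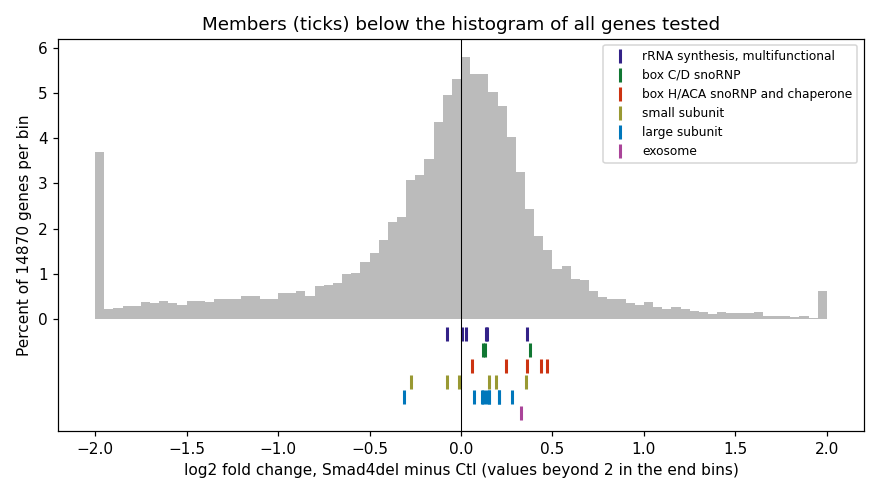
Histogram of the log2 fold changes of all 14870 genes tested (vertical axis, percent of genes per bin; values beyond 2 either way are in the end bins), with 1 tick per member below it, in a row for each role. The ticks lie between -0.31 and 0.47, and 26 of 31 are right of 0.

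Markers of other cell types also differed between the cohorts, mostly in the opposite direction to the members. Of 16 endothelial markers 14 fell and 0 rose, and their normalized counts summed to between 27122 and 77709 per *Ctl* mouse and between 9664 and 20052 per *Smad4del* mouse. Limma gave *Pecam1* a log2 fold change of -1.74 with an adjusted p = 0.00124, *Tek* -2.27 with 0.00213 and *Egfl7* -1.12 with 0.00222. Of 16 macrophage markers 1 fell (*Cd163*, -6.34, adjusted p = 0.0239 from limma), but 15 were lower at an unadjusted p under 0.05 and all 16 had a negative log2 fold change (median -2.51), with sums of 39324 to 316658 and 28412 to 110272, highest in *Ctl* mouse A5215; *Marco*, *Cd163* and *Timd4* were at 0 in some mice. Of 11 markers of stellate cells and fibroblasts 2 fell (*Dcn* and *Acta2*), 7 were lower at an unadjusted p under 0.05 and all 11 had a negative log2 fold change (median -0.92), with sums of 18027 to 48164 and 8729 to 15395. Of 10 lymphocyte markers 3 could be tested and 1 fell (*Cd4*), with sums of 31.1 to 405 and 15.7 to 95.4, and 8 of the 10 were at 0 in some mice. No marker of these lists was at 0 in all mice. In bulk RNA fewer cells of a type and less RNA per cell cannot be told apart. With the endothelial level as a covariate, which is itself correlated with the cohort, 17 of 31 members had a positive log2 fold change (the sign turned in 15), 0 members and 0 genes were called in either direction, and *Smad4* itself had -2.0 with an adjusted p = 0.0758 from limma. The mean log2 level of the endothelial markers did not overlap between the cohorts (10.2 to 11.7 in *Ctl* and 8.68 to 9.8 in *Smad4del* mice). The fit with this covariate therefore cannot separate endothelial level from cohort. How far these cells account for the members' values was not tested.

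The box H/ACA snoRNP had the highest median of the role groups, at 0.36 over its 4 core proteins and the snoRNP chaperone *Nolc1*. *Dkc1* encodes dyskerin, the pseudouridine synthase of the particle and also a subunit of telomerase, and lies on chromosome X from 75095854 to 75109777 (plus strand, GRCm38). It was at 901, 694, 881, 991 and 987 normalized counts in the *Ctl* mice A5215, A5219, A5221, A5626 and A5628, and at 1160, 1338, 1237, 1199 and 1197 in the *Smad4del* mice A5216, A5217, A5218, A5447 and A5624. The cohorts did not overlap, and the mean went from 891 ± 121 to 1226 ± 68.0 (SD, n = 5 each), a 1.38-fold difference. Its log2 fold change was 0.47 (95% interval 0.23 to 0.71, SE 0.108, adjusted p = 0.0259 from limma). Leaving out *Ctl* mouse A5221 or *Smad4del* mouse A5217 or A5218 ended the call of *Dkc1* (adjusted p = 0.0584, 0.0708 and 0.0594 from limma). DESeq2 on recovered reads without A5217 called *Dkc1* (adjusted p = 0.017) and no other member, where 2.99% of all genes were called higher. By edgeR on the same reads no member was called (*Dkc1* adjusted p = 0.0744), where 0.599% of all genes were called higher. On counts simulated for this comparison DESeq2 made 56 false calls, edgeR 3 and limma 5.

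*Nop10*, *Nhp2* and *Gar1*, the other core proteins, had differences of the same sign that did not pass limma's test. *Nop10* was at 922, 1299, 1057, 926 and 1014 normalized counts in *Ctl* and 1456, 1393, 1421, 1137 and 1259 in *Smad4del* mice, in the order of mice given for *Dkc1* and kept from here on. The cohorts overlapped through *Ctl* mouse A5219, and the means were 1043 ± 154 and 1333 ± 133 (SD, n = 5 each; log2 fold change 0.36, SE 0.115, adjusted p = 0.0748 from limma). *Nhp2* and *Gar1* are given to complete the particle and were chosen after their values were seen. *Nhp2* was at 749, 1056, 870, 1119 and 878 normalized counts in *Ctl* and 1287, 1490, 1237, 1124 and 1149 in *Smad4del* mice, without overlap, though the nearest pair of mice differed by 1119 against 1124. Its log2 fold change was 0.44 (95% interval 0.16 to 0.71, adjusted p = 0.0562 from limma). *Gar1* was at 395, 615, 538, 495 and 466 and at 562, 645, 590, 547 and 601 normalized counts, with A5215 lowest and the cohorts overlapping (0.24, adjusted p = 0.237 from limma). *Nolc1*, which shuttles snoRNPs through the nucleus, was at 980 to 1669 and 1090 to 1576 normalized counts (0.06, adjusted p = 0.816 from limma).

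Averaged over these 5 genes on the log2 scale, each *Smad4del* mouse (10.0 to 10.2) was above each *Ctl* mouse (9.56 to 9.91), which describes genes grouped with their changes known and is not tested. With the endothelial level as a covariate the log2 fold changes were 0.59 (*Dkc1*), -0.03 (*Nhp2*), -0.07 (*Nop10*) and -0.20 (*Gar1*). Their adjusted p was at least 0.976 from limma. The endothelial level did not overlap between the cohorts, so this fit cannot tell the core genes apart in how they depend on it. *Dkc1* is X-linked, and *Xist*, the RNA that marks an inactive X chromosome, was at 769 and 823 normalized counts in *Ctl* mice A5221 and A5628, at 889 in *Smad4del* mouse A5447 and at no more than 1.7 in the other mice. With *Xist* as a covariate *Dkc1* kept its call (0.48, adjusted p = 0.0311 from limma).

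**Figure D3:**
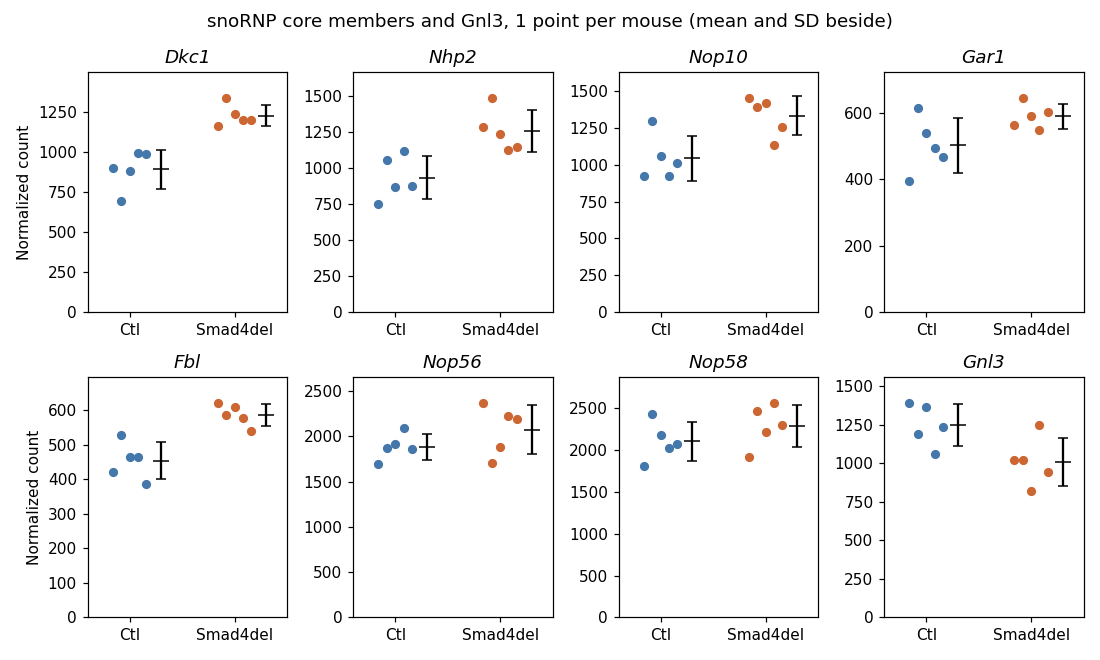
Normalized counts (vertical axes, linear, from 0) of the box H/ACA core genes, the box C/D core genes and *Gnl3*, with 1 point per mouse, and a bar and whiskers for the mean and SD of each cohort. The cohorts do not overlap for *Dkc1* (highest *Ctl* mouse 991, lowest *Smad4del* mouse 1160), *Nhp2* and *Fbl*, and overlap for the other genes drawn.

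All 3 box C/D snoRNP genes had a positive log2 fold change and 0 were called by limma (*Fbl* had an unadjusted p under 0.05). The 3 genes were not tested against one another. *Fbl*, which encodes the methyltransferase fibrillarin, was at 423, 530, 466, 466 and 387 normalized counts in *Ctl* and 622, 587, 611, 579 and 539 in *Smad4del* mice. The cohorts did not overlap, with means of 455 ± 53.5 and 588 ± 32.3 (SD, n = 5 each), yet the log2 fold change of 0.38 (95% interval 0.13 to 0.62) missed limma's threshold with an adjusted p = 0.0624. Its partners in the same particle, the scaffold proteins encoded by *Nop56* and *Nop58*, had smaller differences. *Nop56* was at 1696, 1869, 1914, 2090 and 1855 normalized counts in *Ctl* and 2370, 1708, 1886, 2220 and 2188 in *Smad4del* mice (0.13, 95% interval -0.09 to 0.35, adjusted p = 0.425 from limma). *Nop58* was at 1807, 2434, 2181, 2024 and 2072 and at 1914, 2460, 2216, 2563 and 2299 normalized counts (0.12, 95% interval -0.10 to 0.35, adjusted p = 0.465 from limma). Both overlapped between the cohorts. With the endothelial level as a covariate *Fbl* had a log2 fold change of 0.11.

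Of the 6 members that act in rRNA synthesis or in several nucleolar steps, 5 had a positive log2 fold change (median 0.08) and 0 were called by limma (*Polr1b* had an unadjusted p under 0.05). *Polr1b* encodes a core subunit of RNA polymerase I. It was at 514, 588, 708, 492 and 682 normalized counts in *Ctl* and 645, 810, 721, 898 and 739 in *Smad4del* mice, which overlapped through A5216, with a log2 fold change of 0.36 (95% interval 0.06 to 0.66, adjusted p = 0.116 from limma). *Npm1*, which encodes the chaperone nucleophosmin, was at 3071, 3870, 3469, 3768 and 3398 and at 3951, 4453, 3499, 4121 and 3352 normalized counts (0.14, adjusted p = 0.381 from limma). Its highest and lowest *Smad4del* mice lay on either side of most *Ctl* mice. *Ncl*, the gene of nucleolin, had means of 8353 ± 507 and 8551 ± 948 normalized counts (SD, n = 5 each) and a log2 fold change of 0.03 with a 95% interval of -0.16 to 0.22. *Pa2g4*, a growth-regulated nucleolar protein, had 0.14, *Mybbp1a*, a nucleolar corepressor, 0.01 and *Ddx21*, an RNA helicase, -0.08 (adjusted p of 0.419 or more from limma).

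Small subunit factors were divided in sign, 3 of 6 positive, with a median of 0.07 and 0 called by limma (*Noc4l* higher at an unadjusted p under 0.05). *Noc4l* was at 786, 1006, 1010, 899 and 1050 normalized counts in *Ctl* and 1561, 1284, 980, 1217 and 1093 in *Smad4del* mice. A5216 stood highest and A5218 lay within the *Ctl* range, and the log2 fold change was 0.36 (95% interval 0.07 to 0.65, adjusted p = 0.111 from limma). *Wdr43*, a processome protein, was at 1378, 1592, 1468, 1649 and 1502 and at 1800, 1637, 1340, 1829 and 1884 normalized counts (0.15, adjusted p = 0.359 from limma). *Rrp12* had a log2 fold change of 0.19, *Nop14* of -0.01 and *Rrp9*, a protein bound to the snoRNA of the processome, of -0.08. *Utp20*, a large scaffold of the processome, was the member that varied most, at 713, 665, 427, 691 and 822 normalized counts in *Ctl* and 463, 658, 196, 1028 and 719 in *Smad4del* mice. The lowest and the highest of the 10 values are both from *Smad4del* mice, and its interval of -1.08 to 0.53 leaves the direction undetermined.

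Among the 10 large subunit factors tested, 9 had a positive log2 fold change (median 0.15) and 0 were called by limma (*Nop16* higher and *Gnl3* lower at an unadjusted p under 0.05). The exception was *Gnl3*, which encodes nucleostemin, a GTPase abundant in stem cells and tumours. *Gnl3* was at 1391, 1190, 1367, 1062 and 1233 normalized counts in *Ctl* and 1019, 1019, 820, 1245 and 944 in *Smad4del* mice. Here 4 of the 5 *Smad4del* mice were below each *Ctl* mouse and A5447 was within their range. The log2 fold change was -0.31 (95% interval -0.58 to -0.05, adjusted p = 0.125 from limma). *Nop16* was at 657, 890, 922, 689 and 769 and at 977, 1065, 961, 871 and 859 normalized counts (0.28, 95% interval 0.02 to 0.54, adjusted p = 0.156 from limma). *Ddx18*, an RNA helicase, had a log2 fold change of 0.21 and *Rrs1* of 0.21. *Pes1* and *Bop1*, whose proteins act in 1 complex with that of *Wdr12*, had 0.11 and 0.15, and *Nop2* had 0.15. *Nip7* had 0.14, *Mrto4*, which holds the place of a ribosomal stalk protein, 0.12 and *Ppan* 0.07. *Exosc7*, a subunit of the RNA exosome that trims rRNA precursors, was at 535, 788, 783, 711 and 638 normalized counts in *Ctl* and 839, 919, 1017, 755 and 794 in *Smad4del* mice (0.33, 95% interval 0.04 to 0.62, adjusted p = 0.134 from limma), and A5447 overlapped with the *Ctl* mice.

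Levels of the members spanned a wide range when set per kilobase of the principal transcript. Their order depends on that length, taken from the longest transcript marked principal, which for *Ncl* has 8202 bases. Reads were counted per gene, and all annotated exons cover 10758 bases in *Nop58* against 1713 in its principal transcript. In *Exosc7* they cover 6013 against 1053. *Npm1* was highest, with 2152 normalized counts per kb in *Ctl* and 2373 in *Smad4del* cells, followed in *Ctl* cells by *Nop58* (1228), *Ncl* (1018), *Nop56* (1004), *Nop10* (941) and *Nhp2* (897). In *Smad4del* cells *Nhp2* (1207 per kb) and *Nop10* (1202 per kb) stood above *Nop56* (1105 per kb) and *Ncl* (1043 per kb). The 4 box H/ACA core genes were not at 1 level: *Gar1* was at 395 and *Dkc1* at 318 normalized counts per kb in *Ctl* cells. Of the members tested, *Polr1b* (149), *Rrp12* (126) and *Utp20* (75.2) were lowest in *Ctl* cells, and *Utp20* was also lowest in *Smad4del* cells (69.5 per kb). *Wdr74*, which was not tested, stood at 6.04 normalized counts per kb in *Ctl* and 4.64 in *Smad4del* cells. Within the set 7 members hold 21 snoRNA genes inside their own bounds on the same strand (5 in *Nop56*, 4 in *Nop58*, 3 each in *Ncl*, *Wdr43* and *Gnl3*, 2 in *Ppan* and 1 in *Dkc1*), and each of these snoRNA genes was listed at no more than 7.62 normalized counts in any mouse. How well these libraries capture snoRNAs was not tested, so these counts do not give snoRNA levels. In GENCODE M21, exons of other genes overlapped at most 8.1% of a member's exons and none in 18 members. By the study's methods reads were counted on an earlier GENCODE release, whose overlaps were not examined. Pseudogenes were sought only under a member's own symbol followed by -ps, and *Mrto4* has 2 of these. Pseudogenes of any member under other names were not counted. Reads of a pseudogene cannot be told from those of its gene if multi-mapping reads were counted.

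Mice of 1 cohort differed among themselves in how the members stood. In *Ctl* mice 8, 21, 21, 17 and 11 of the 31 members were above their *Ctl* mean, and in *Smad4del* mice 23, 22, 18, 28 and 25. A5215 had the lowest value of the 10 mice in 14 members, and its mean deviation over the 31 members was -0.141 on the log2 scale. *Smad4del* mouse A5218 was lowest in 8, with a mean deviation of 0.006, within the range of the *Ctl* mice. *Smad4del* mouse A5447 was highest in 9 members and A5217 in 7, with mean deviations of 0.23 and 0.188. A5215 was also the mouse with the highest sums of endothelial, macrophage, lymphocyte and stellate markers, and the part of those cells in its low values was not tested. Mouse numbers fall into a block A52 (3 mice of each cohort) and a block A54 to A56 (2 of each), whose meaning the labels do not give. In the first 22 members were higher in *Smad4del* mice (median log2 difference 0.14), in the second 27 (0.20), and 21 were higher in both. *Dkc1* differed by 0.60 and 0.28, *Nhp2* by 0.595 and 0.197, *Fbl* by 0.36 and 0.39 and *Gnl3* by -0.47 and -0.08. *Utp20* turned its sign, from -0.585 to 0.19.

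**Figure D4:**
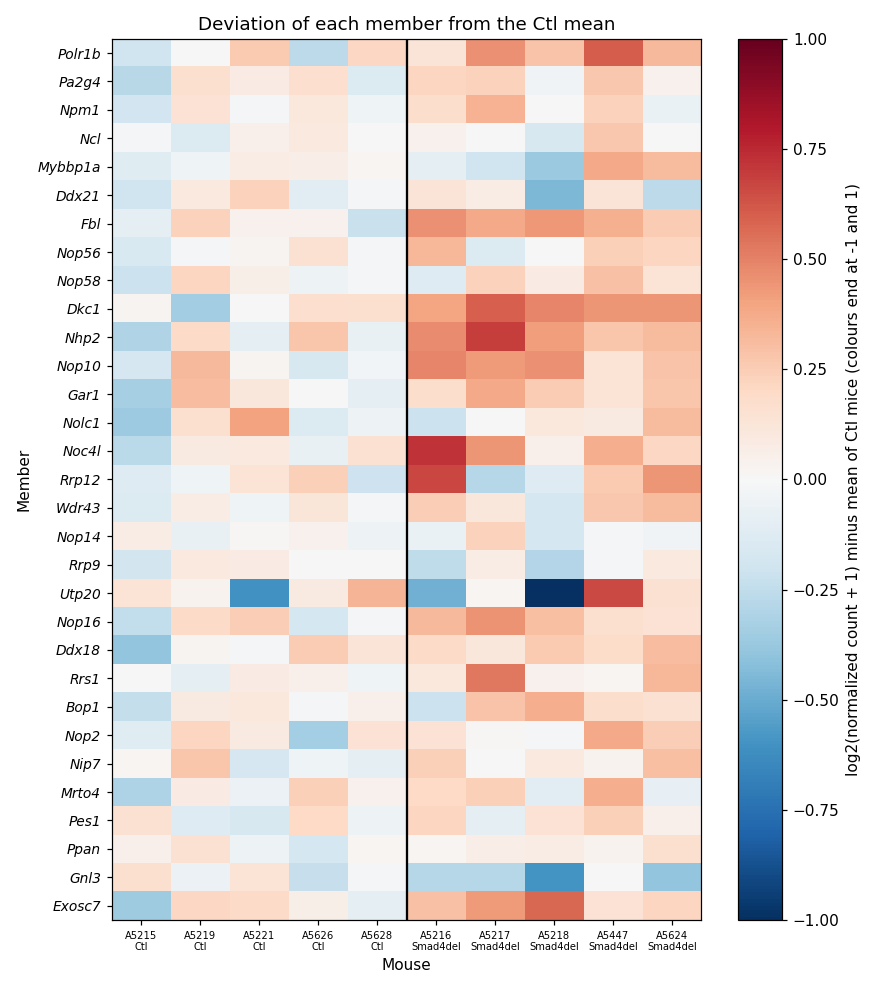
Deviation of each member (rows, by role) in each mouse (columns) from the mean of the *Ctl* mice, as log2(normalized count + 1); red is higher and blue lower, colours end at -1 and 1, and *Utp20* in A5218 lies beyond the end. *Dkc1*, *Nhp2*, *Fbl*, *Nop10* and *Exosc7* are among the members in which all 5 *Smad4del* mice are red, and the column of A5215 is mostly blue.

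Other factors of the same pathway also differed little between the cohorts. Of 148 further ribosome biogenesis factors 147 were found and 146 tested: 2 rose, 0 fell (16 higher and 3 lower at an unadjusted p under 0.05 from limma), and 98 (67.1%) had a positive log2 fold change, with a median of 0.07. The 2 were *Polr1c*, a subunit shared by RNA polymerases I and III (0.40, adjusted p = 0.04995), and *Rrp36*, which acts in early cleavage of the rRNA precursor (0.41, adjusted p = 0.0459 from limma). *Polr1c* ranged from 702 to 929 normalized counts over the *Ctl* and from 978 to 1277 over the *Smad4del* mice, and *Rrp36* at 487 to 681 and 748 to 883, without overlap in either. Both calls depended on single mice: *Polr1c* was called in only 1 of the 10 fits that left out a mouse (without A5447, adjusted p = 0.0368) and *Rrp36* in 2 (without A5219, 0.0388, and without A5447, 0.0443 from limma). Among 10 assembly factors of snoRNPs 9 were positive (median 0.17) and 0 called (3 higher at an unadjusted p under 0.05). *Ruvbl2*, an ATPase of snoRNP assembly, had 0.43 (adjusted p = 0.0637) and *Znhit3*, which acts in box C/D assembly, 0.49 (adjusted p = 0.0684 from limma). Of 57 large subunit factors 0 were called (4 higher and 2 lower at an unadjusted p under 0.05) and 37 were positive. *Rbm28* lay between 848 and 955 normalized counts among *Ctl* mice and, without overlap, between 691 and 822 among *Smad4del* mice (-0.26, adjusted p = 0.084), and *Wdr12* had 0.49 (adjusted p = 0.091 from limma). Of 12 further exosome subunits and cofactors 11 were positive (median 0.11) and 0 called (1 higher at an unadjusted p under 0.05), with *Exosc2* at 0.42 (adjusted p = 0.136) and *Exosc3* at 0.30 (adjusted p = 0.209 from limma).

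Cytosolic ribosomal proteins, the cargo of this pathway, showed small positive differences: limma called 0 of 78 tested (21 higher at an unadjusted p under 0.05), 77 had a positive log2 fold change, and the median was 0.18. *Rps24* lay between 984 and 1224 normalized counts among *Ctl* and between 1203 and 1477 among *Smad4del* mice (0.32, adjusted p = 0.0629), and *Rps18* at 1071 to 1924 and 1878 to 2866 (0.58, adjusted p = 0.0674 from limma). Many of these genes have processed pseudogenes, so that their counts are uncertain. Of 14 snoRNA host genes tested 0 were called, nor did any have an unadjusted p under 0.05 (median 0.04), with *Gas5* at 0.22 (adjusted p = 0.299) and *Snhg17* at -0.27 (adjusted p = 0.399 from limma).

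*Myc* had a log2 fold change of the opposite sign to most members and was not called. It was at 6497, 4306, 5737, 4030 and 5647 normalized counts in *Ctl* and 3018, 3305, 2949, 5528 and 3394 in *Smad4del* mice, below every *Ctl* mouse in 4 of 5, with A5447 within the *Ctl* range. Its log2 fold change was -0.55 (SE 0.183, adjusted p = 0.086 from limma), and 0.093 with the endothelial level as a covariate. Of the 12 genes of the MYC network tested, limma called 0 (1 higher and 4 lower at an unadjusted p under 0.05), and *Mxd3*, a partner of MAX that opposes MYC, had 1.16 (adjusted p = 0.0956 from limma). Of 10 proliferation markers 8 rose, 0 fell and the median log2 fold change was 0.94 (range 0.15 to 1.5), with *Mki67* between 299 and 477 normalized counts among *Ctl* and between 604 and 912 among *Smad4del* mice (0.90, adjusted p = 0.0123), *Ccna2*, the gene of cyclin A, at 1.03 (adjusted p = 0.00776) and *Top2a*, a topoisomerase, at 1.5 (adjusted p = 0.00787 from limma).

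**Figure D5:**
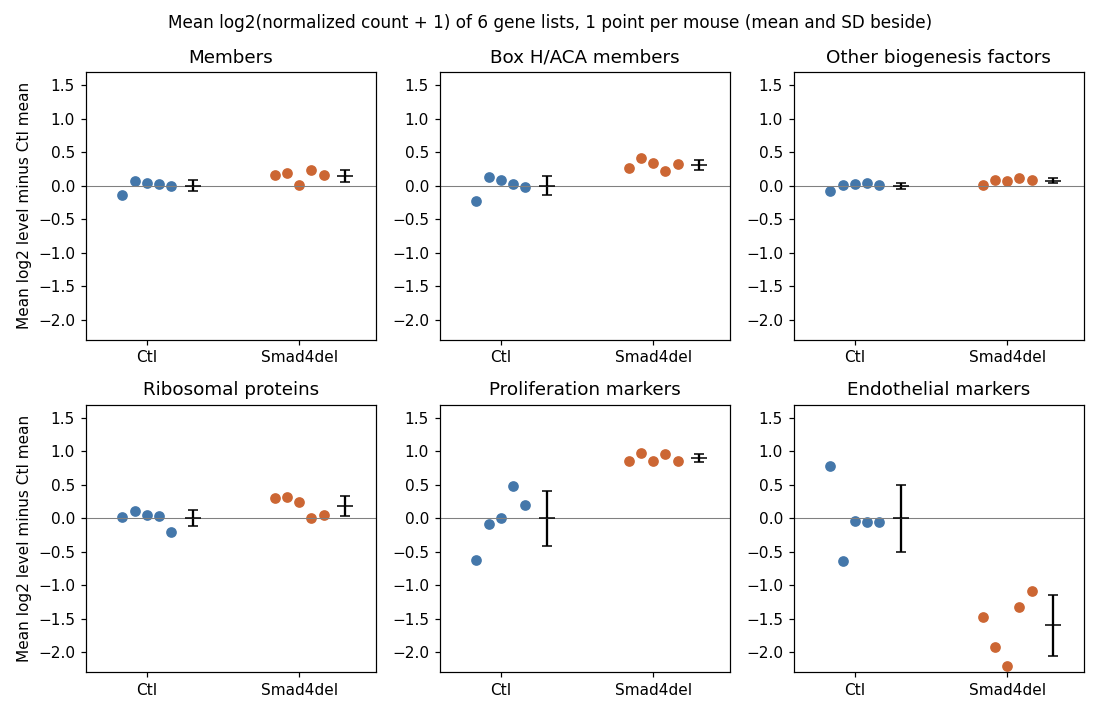
Mean log2(normalized count + 1) of 6 lists minus its mean over the *Ctl* mice (vertical axes, the same scale in all panels), with 1 point per mouse and the mean and SD of each cohort beside the points. Members, other biogenesis factors and ribosomal proteins differ little beside proliferation markers, which are higher in each *Smad4del* mouse, and endothelial markers, which are lower in each.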

How the data were processed

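Per the labels and the study's methods, RNA of sorted cells was amplified with SMART-Seq v4 and read from one end. Before deposit, the authors used Trimmomatic 0.36 for trimming, STAR for alignment to GRCm38.p5 and featureCounts for counting per GENCODE gene, and they deposited DESeq2 1.14.1 normalized counts (R 3.3.2), a signal per gene with no length correction. The submitters' processing notes also name mm9. By the methods, counts were made both from uniquely aligned reads and with multi-mapping reads; which of these was deposited is not stated in the sources used here. In each mouse 100% of values were whole multiples of the value of 1 read (relative tolerance 1e-06), so reads were recovered. For A5217 that value is 0.998. A value so near 1 was not accepted, although this mouse also had 100% whole multiples, so count tests used the other 9 mice.

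Members, role lists, markers, tests and alternatives were chosen with earlier results of these data known. The table holds 49568 genes (22557 with no read in any mouse), of which 14870 averaged at least 10 normalized counts and were tested with limma 3.58.1 (R 4.3.3, trended prior, cohort as the only term) on log2(normalized count + 1), which understates changes of low genes. P-values measure the spread between 5 mice per cohort. Given mouse by mouse are, per role group, called members or else the 2 of smallest p, and the member highest per kb; *Utp20*, *Nhp2* and *Gar1* were added after their values were seen. Of other lists up to 3 called genes, or the 2 of smallest p, are named. Alternatives were pseudocounts of 0.5 and 10, no minimum, a minimum of 50, median and quantile scaling, covariates (mouse-number block, *Xist*, endothelial level), DESeq2 1.42.0, edgeR 4.0.16 and leaving out each mouse. Positions and lengths are of GENCODE M21 (GRCm38). The limma fit was tested on counts simulated for this comparison (14870 genes): of 100 genes each, 55 with a 2-fold and 78 with a 4-fold change were recovered, beside 5 false calls. On the same counts DESeq2 on 9 mice recovered 63 and 84 beside 56 false calls, and edgeR 50 and 75 beside 3. Changes as small as those of the members were not simulated.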

Additional observations from a re-analysis of the deposited data

Results flagged for a closer look

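In 7 of 120 sets of 5 mice (1 named gene in 1 cohort each), 1 mouse lay apart from the other 4 by more than Dixon's 95% limit; chance gives about 1 in 20, and 0 of the 62 sets of members were among the 7. *Myc* in *Smad4del* mouse A5447 was at 5528 normalized counts, with the nearest other *Smad4del* mouse at 3394. *Xist* in the same mouse was at 889, with the others of its cohort at 0. *Ruvbl2* in *Ctl* mouse A5215 was at 828, below the next *Ctl* mouse at 1168. *Ccna2* in *Ctl* mouse A5626 was at 372, with the next *Ctl* mouse at 251, and *Top2a* in *Smad4del* mouse A5216 was at 1160, with the next at 923. *Cd163*, a macrophage marker, was at 1984 in *Ctl* mouse A5215, with the next at 409, and at 74.6 in *Smad4del* mouse A5216, with the other 4 at 0.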

How the results depend on the processing

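The members' median log2 fold change was positive in all 21 alternatives (0.0595 with the endothelial covariate to 0.21 with median scaling, and 0.112 to 0.18 without 1 mouse), and 0 members were called lower in any. The median over all genes moved too, from -0.00497 in the main fit to 0.0598 with median scaling and 0.083 with quantile normalization. It was 0.00648 with the endothelial covariate. *Dkc1* was called in 16 of the 21. The number of members called higher was 3 with median scaling (*Dkc1*, *Nhp2*, *Fbl*), 2 with quantile normalization (*Dkc1*, *Fbl*), 2 with *Xist* (*Dkc1*, *Polr1b*), 0 with the endothelial covariate and 0 with edgeR. Without 1 mouse it was 0 to 4: 4 without *Ctl* mouse A5219 (*Dkc1*, *Nhp2*, *Fbl*, *Nop10*), 2 without A5626 or A5447 and 0 without A5221, A5217 or A5218. Calls over all genes moved too: 458 of 14856 were higher without A5219, 254 of 14856 without A5626 and 563 of 14890 without A5447. With *Xist* as a covariate 407 of 14870 were higher. Other biogenesis factors called higher numbered 1 with a pseudocount of 0.5 or DESeq2, 0 with no minimum, the mouse-number block, *Xist*, the endothelial covariate or edgeR, and 0 to 3 without 1 mouse (0 without A5215, A5221, A5626, A5628, A5217, A5218 or A5624, 1 without A5216 and 3 without A5447). Of all genes, 209 were higher with no minimum, 626 with median scaling, 579 with quantile normalization, 0 with the endothelial covariate (0 lower; 720 at an unadjusted p under 0.05) and 89 with edgeR (265 lower). Without 1 mouse 105 to 563 were higher and 329 to 852 lower, with 206 and 462 without A5215, 160 and 381 without A5221, 105 and 329 without A5217, 145 and 364 without A5218 and 197 higher without A5624. *Smad4* had -2.0 (adjusted p = 0.0758 from limma) with the endothelial covariate and -2.02 to -1.87 without 1 mouse. With the endothelial covariate the direction turned in 15 of the 31 members: *Npm1* (-0.12), *Nop58* (-0.13), *Nop10* (-0.0692), *Gnl3* (0.0199), *Nop16* (-0.14), *Exosc7* (-0.28), *Utp20* (0.85), *Bop1* (-0.24), *Gar1* (-0.20), *Nolc1* (-0.19), *Pa2g4* (-0.07), *Mrto4* (-0.07), *Ddx18* (-0.05), *Nhp2* (-0.03) and *Nop14* (0.08). Of the other genes named, it turned in *Ruvbl2* (-0.13), *Exosc2* (-0.26), *Exosc3* (-0.18), *Myc* (0.093) and *Ttr*, a hepatocyte marker (-0.19). The cause of these changes was not tested. Fits without a mouse and the count tests have fewer samples. Reads on genes numbered 16249719 to 21277339 per mouse, and how depth or the number of mice limits the calls was not tested.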
